A study of Mus musculus with 9 samples.

Results

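KLN205 tumors in which a first short hairpin RNA against *Tmprss11b* (shRNA1) was induced were compared with tumors that carried the control shRNA. The comparison holds 6 tumors, 3 in each arm, of the 9 in the series, taken by their library labels (the construct is numbered 2 in the labels and is shRNA1 in the study). KLN205 is a mouse lung squamous cell carcinoma line of the DBA/2 strain. Cells of both arms carried a doxycycline-inducible lentiviral SMARTvector, with a scrambled hairpin in the controls, and were placed under the skin of the right flank of female DBA/2 mice aged 6 to 8 weeks with an intact immune system. All animals drank doxycycline water once the mean tumor volume over the study's groups reached 100 mm3, and tumors were resected on day 50 after injection. The study reports reduced tumor growth with the *Tmprss11b* shRNAs. Effects of tumor size and of the hairpin therefore cannot be told apart here, and volumes of the sequenced tumors were not used. The hairpin acts in the implanted cells, and host cells of the tumor do not carry it. Pieces of whole tumor were used for polyadenylated RNA sequencing, so the counts mix carcinoma and host cells. The labels call the tumors biological replicates, and whether single mice or cages were shared is not stated.

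TMPRSS11B belongs to the type II transmembrane serine proteases, which sit in the plasma membrane with their catalytic domain outside the cell. It is found in stratified squamous epithelium and has been linked to lactate export through basigin and the monocarboxylate transporters. Lactate and acid are known to blunt T cells and to favor arginase-expressing macrophages. Epithelial, metabolic and immune genes were all examined, in lists drawn up with earlier results of these data known. The comparison asks which genes differ in the tumor as a whole when *Tmprss11b* is lowered.

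The target gene was read first. *Tmprss11b* is listed under its older symbol, *Tmprss11bnl*, and lies at chr5:86659522-86676298 in GRCm38. It had 18, 51 and 42 counts in control tumors 1, 2 and 3 and 7, 2 and 5 counts in shRNA1 tumors 1, 2 and 3, an order kept for all values below. Scaled to a common library size (CPM, with TMM factors for library composition), these were 0.776, 2.16 and 1.75 CPM against 0.300, 0.0979 and 0.213 CPM. The highest shRNA1 tumor was below the lowest control tumor. The group means were 1.56 ± 0.710 CPM (SD, n = 3) and 0.204 ± 0.102 CPM (SD, n = 3), and the log2 fold change was −2.89 with a standard error of 0.58. An exact permutation test, two-sided, gave p = 0.1, the smallest that 3 tumors against 3 allow. With the floor set at 3 counts, or 0.125 to 0.147 CPM by library, shRNA1 tumor 2 lay below it.

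The 6 libraries held between 21596601 and 23719323 counts on genes. The labelled tissue was checked with TPM, transcript shares of each library that account for gene length. *Epcam* and *Krt8*, which mark epithelium, were at 773.8 TPM or more in each of the 6 tumors. Of the squamous markers, the keratin genes *Krt14* and *Krt6a* were between 79.3 and 547 TPM and between 107 and 304 TPM. *Trp63*, the master regulator of squamous basal cells, was between 0.28 and 2.67 TPM. Of the intestinal markers, *Vil1* and *Muc2* were at 0.24 TPM or less in each tumor, *Fabp1* was between 0 and 2.88 TPM and *Fabp2* between 2.31 and 12.6 TPM. Tumors that stood apart were control tumor 1, with skin genes (*Krt1* at 24.6 TPM and 0.39 TPM or less in the other tumors), control tumor 3, with skeletal muscle (*Acta1* at 1773 TPM and 0.74 to 192 TPM in the others), and shRNA1 tumor 2, whose correlations with the other tumors on log2 CPM were 0.931 to 0.963, beside 0.950 to 0.983 among the other 5. List medians are given without a tumor where leaving it out turned them or moved them by over 1.5 times, if they were over 0.1 in size.

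No gene passed the threshold of an adjusted p under 0.05. By edgeR's quasi-likelihood test, 0 of 14507 tested genes (0%) were called and the lowest Benjamini-Hochberg adjusted p was 0.759. At an unadjusted p under 0.05, 398 genes were higher (2.74%) and 376 were lower (2.59%) with shRNA1. In 835 genes (5.76%) each shRNA1 tumor was above each control, and in 824 (5.68%) each was below. Less cautious tests called more: DESeq2's Wald test called 27 genes, edgeR's likelihood ratio test 16, and the same test with earlier dispersion functions and no filter 63. *Arg1*, *Muc1* and *Krt16*, described below, were called by all 3 of these, and *Mcpt4* and *Nr1d1* by the first and the second. The values that follow are therefore those of single tumors and of gene groups, read against these background shares, and an adjusted p given for a gene is from edgeR's quasi-likelihood test over all tested genes unless another test is named, while genes were ordered by their unadjusted p.

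Among genes higher in each shRNA1 tumor, *Arg1* had the largest fold of the 12 with the smallest p. It encodes arginase, which turns arginine into ornithine and urea and is carried by alternatively activated macrophages. It lies at chr10:24915207-24927470 in GRCm38. The controls had 23.9, 33.4 and 16.7 CPM and the shRNA1 tumors 70.9, 174 and 183 CPM. Only genes whose groups do not overlap were ranked here. The fitted difference was 5.79-fold (log2 2.53, standard error 0.43, adjusted p = 0.759). *Atp6v0d2*, a subunit of the vacuolar proton pump of osteoclasts and macrophages, followed at a lower level, with 1.29, 1.44 and 0.833 CPM against 2.53, 8.42 and 4.13 CPM.

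**Figure D1:**
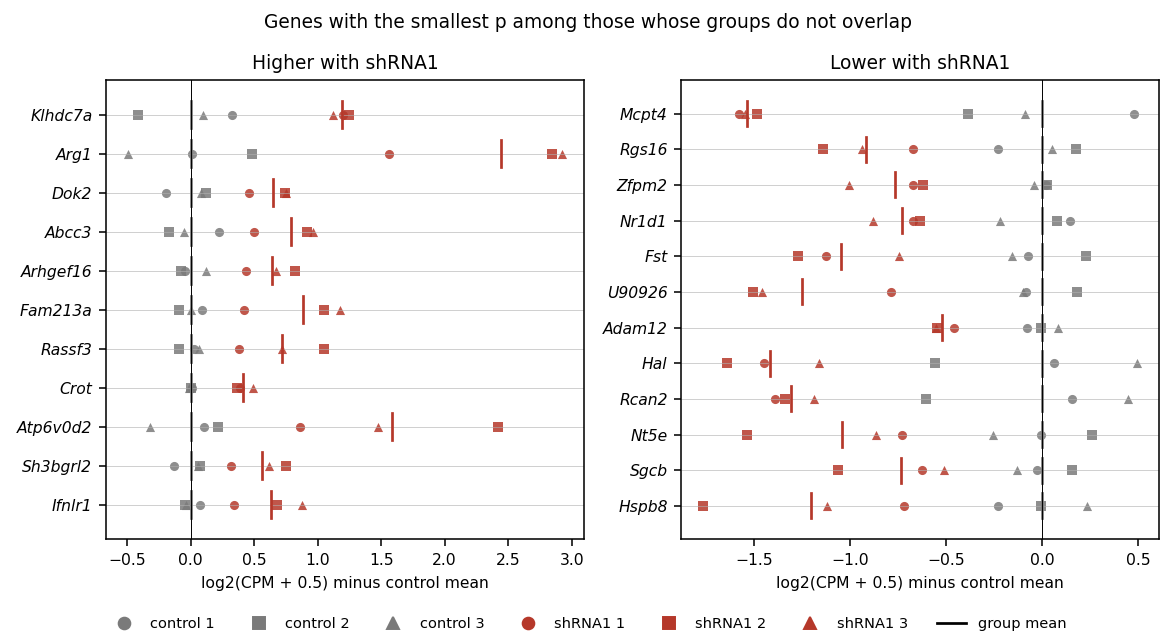
Values of each tumor for 11 of the 12 higher and for the 12 lower genes with the smallest p among genes whose groups do not overlap and whose mean is at least 1 CPM. The horizontal axis is log2(CPM + 0.5) minus the mean of the 3 controls, points are tumors and vertical strokes are group means. *Arg1* in the left panel and *Mcpt4* in the right panel lie farthest from the controls in the mean, at log2 fold changes of 2.53 and −1.95, and the genes were picked for not overlapping.

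*Klhdc7a*, a kelch-repeat gene, had 27.1, 16.03 and 23.03 CPM against 50.1, 51.9 and 47.6 CPM, a 2.26-fold difference with shRNA1 tumors that were close to each other. *Abcc3*, an exporter of organic anions and conjugates, had 58.3, 44.2 and 48.1 CPM against 70.5, 94.7 and 97.9 CPM. *Crot*, the peroxisomal carnitine octanoyltransferase, had 201, 200.5 and 198 CPM against 262, 257 and 281 CPM and the smallest fold of the 12, at 1.33. The groups of these genes were separate in each case by construction of the rule.

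Others of the 12 were signaling and redox genes. *Dok2*, an adaptor below tyrosine kinases in blood cells, had 42.4, 52.7 and 51.3 CPM against 67.1, 81.4 and 82.2 CPM. *Fam213a*, a peroxiredoxin-like protein, had 276, 243 and 259.8 CPM against 347, 538 and 587 CPM. In both, shRNA1 tumor 1 was nearest to the controls. *Rassf3* (Ras association family) was 1.68-fold higher, *Arhgef16* 1.58-fold, *Sh3bgrl2* 1.49-fold and *Ifnlr1* (the specific chain of the type III interferon receptor) 1.58-fold.

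Among the 12 lower genes, *Mcpt4*, the chymase of connective tissue mast cells, had the largest fold. It had 6.03, 3.09 and 3.91 CPM in the controls and 1.07, 1.17 and 1.11 CPM in the shRNA1 tumors, 3.87-fold lower (log2 −1.95, standard error 0.35, adjusted p = 0.759). The shRNA1 tumors were close to each other, and control tumor 1 was highest. *Nr1d1*, which encodes the circadian repressor REV-ERB alpha, had 74.6, 71.1 and 57.8 CPM against 42.1, 43.2 and 36.5 CPM (log2 −0.74, standard error 0.13, adjusted p = 0.759). The groups were separate, as the rule requires, and control tumor 3 was nearest to the shRNA1 tumors.

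Several lower genes encode secreted or membrane regulators. *Rgs16*, which speeds the switching off of G proteins, had 249, 329.7 and 302 CPM against 183, 132 and 152 CPM. *Fst*, encoding follistatin, the activin antagonist, had 22.2, 27.5 and 20.9 CPM against 10.5, 9.397 and 13.8 CPM. *Nt5e* encodes CD73, the surface enzyme that makes adenosine from AMP, and had 93.1, 112 and 78.2 CPM against 56.2, 31.9 and 51.2 CPM. shRNA1 tumor 2 was lowest of the 6 for all 3 of these genes. *Adam12*, a membrane metalloprotease of the ADAM family, differed less but evenly, with 65.5, 69.02 and 73.4 CPM against 50.2, 47.2 and 47.1 CPM.

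*Hal*, which makes urocanate from histidine and is typical of epidermis and liver, had 4.96, 3.05 and 6.87 CPM against 1.42, 1.17 and 1.83 CPM. *Hspb8*, a small heat shock protein, had 34.8, 40.7 and 48.1 CPM against 24.6, 11.6 and 18.5 CPM. *Zfpm2*, a cofactor of GATA factors, had 35.03, 35.1 and 33.5 CPM against 21.5, 22.3 and 16.96 CPM. The groups of all 12 lower genes were separate by construction of the rule. Of the rest of the 12, *Rcan2* (a calcineurin regulator) was 3.22-fold lower, *U90926* 2.39-fold and *Sgcb* (beta-sarcoglycan) 1.65-fold.

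Genes of simple, gland-like epithelium were mostly higher with shRNA1. Of 26 tested members of a list of such genes, 25 had a positive log2 fold change, 6 passed an unadjusted p under 0.05 in that direction and 0 in the other, and the median log2 fold change was 0.40, beside 0.01 over all genes tested. *Muc1*, a membrane mucin of glandular surfaces (chr3:89229056-89233381 in GRCm38), had 141, 116 and 182 CPM in the controls and 221, 651 and 477 CPM in the shRNA1 tumors. Its groups did not overlap, and the difference was 3.07-fold (log2 1.62, standard error 0.39, adjusted p = 0.759). *Elf3*, an epithelial ETS factor, had 109, 115 and 100.4 CPM against 100.1, 413 and 311 CPM, and *Krt19*, a keratin of simple epithelium, had 977, 1008 and 809 CPM against 853, 2154 and 1841 CPM. For both, shRNA1 tumors 2 and 3 were high and shRNA1 tumor 1 was within or at the edge of the control range.

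The tight junction gene *Ocln* had 32.8, 42.00 and 36.4 CPM against 38.1, 61.1 and 57.2 CPM, and the epithelial splicing regulator *Esrp1* had 121, 134 and 122 CPM against 139, 183 and 151 CPM. Only the second of these was separate between groups. Without shRNA1 tumor 2 the median of the list was 0.24 with 1 member past the unadjusted threshold, and without shRNA1 tumor 1 it was 0.61 with 17. Leaving out shRNA1 tumor 1 also moved the shares over all genes, to 5.29% higher and 5.94% lower at an unadjusted p under 0.05, and leaving out shRNA1 tumor 2 moved them to 1.75% and 1.57%, so counts without these tumors are read against those shares. In RNA from whole tumor, a larger share of epithelial cells and more RNA of these genes per cell cannot be told apart, and this holds for every cell type list below.

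Intestinal genes were higher as well, mainly through 1 tumor. Of 16 tested members of the list, 9 were higher at an unadjusted p under 0.05, 6 had separate groups and the median log2 fold change was 2.07. The list held 50 genes, of which 40 were in the deposited counts and only these 16 passed the count filter. A gene low in the controls can pass it through high shRNA1 tumors, so these values do not describe the whole list. *Cdx2*, the homeobox factor that sets intestinal fate (chr5:147300900-147307249 in GRCm38), had 4.61, 5.202 and 5.08 CPM in the controls and 9.998, 95.6 and 9.202 CPM in the shRNA1 tumors. *Gata4*, a factor of foregut and proximal intestine, had 12.2, 12.01 and 10.4 CPM against 15.7, 26.4 and 18.6 CPM. All shRNA1 tumors were above all controls for both factors, shRNA1 tumor 2 by far the most for *Cdx2*.

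*Clca4*, a calcium-activated chloride channel regulator of gut epithelium, had 2.71, 5.62 and 11.7 CPM against 13.6, 428 and 16.8 CPM, and the membrane mucin *Muc13* had 1.34, 0.338 and 1.04 CPM against 1.85, 88.98 and 0.980 CPM. *Isx*, an intestinal homeobox gene and a target of *Cdx2*, had 0.0862, 0 and 0 CPM against 0.729, 19.9 and 0.256 CPM. For *Muc13*, shRNA1 tumors 1 and 3 were near the controls, so the excess belonged to shRNA1 tumor 2. Without that tumor the median of the list was 0.72, and 3 of 17 tested members were higher at an unadjusted p under 0.05, while without shRNA1 tumor 3 the median was 3.16. *Agr2*, a disulfide isomerase of goblet cells, had its peak in another tumor, with 0.517, 0.381 and 0.250 CPM against 5.11, 1.86 and 0.256 CPM. *Olfm4*, a crypt stem cell gene, had 0.431, 0.211 and 0.333 CPM against 0.987, 0.832 and 0.511 CPM, and passed the count filter through the shRNA1 tumors.

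Retinoic acid genes were mixed, with 3 of 27 tested members higher and 2 lower at an unadjusted p under 0.05 and a median log2 fold change of 0.09, which ranged from −0.084 without shRNA1 tumor 3 to 0.25 without control tumor 1. *Aldh1a3*, which makes retinoic acid from retinal, had 17.8, 29.99 and 11.9 CPM in the controls and 37.2, 1248 and 69.4 CPM in the shRNA1 tumors. The groups were separate, but the mean was carried by shRNA1 tumor 2, and without that tumor the log2 fold change was 1.41. *Dhrs3*, which returns retinal to retinol, had 46.2, 40.3 and 55.5 CPM against 47.2, 79.3 and 104 CPM. The retinol carrier *Rbp2* had 3.02, 2.495 and 1.04 CPM against 1.07, 0.245 and 0.895 CPM, lower in the mean with overlapping groups.

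**Figure D2:**
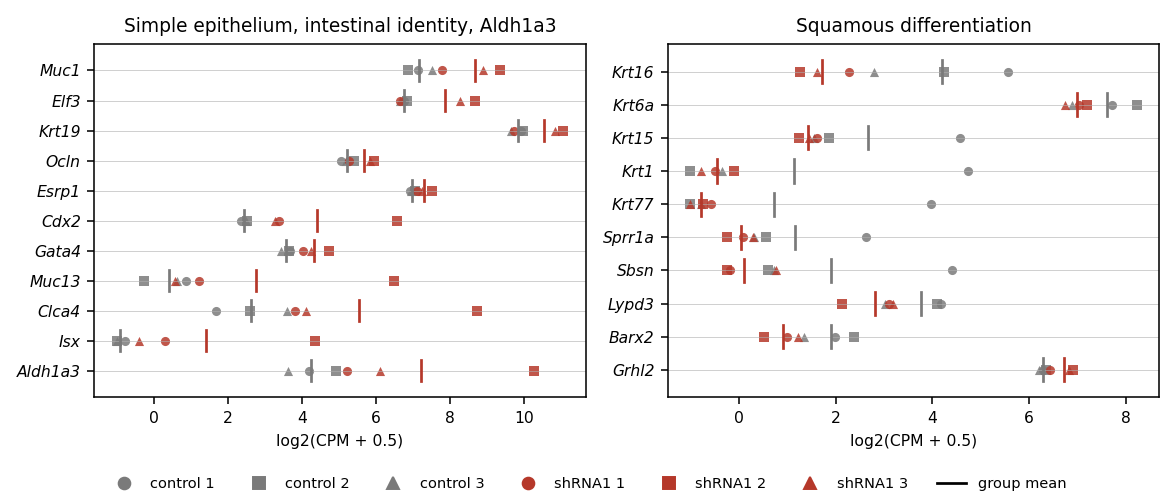
Epithelial genes in each tumor, as log2(CPM + 0.5) on the horizontal axis, with genes of simple and intestinal epithelium and *Aldh1a3* on the left and genes of squamous differentiation on the right; points are tumors and vertical strokes are group means. shRNA1 tumor 2 lies to the right for *Cdx2*, *Muc13*, *Clca4*, *Isx* and *Aldh1a3*, and control tumor 1 lies to the right for *Krt1*, *Krt77*, *Krt15*, *Sprr1a* and *Sbsn*.

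Genes of squamous differentiation were lower in the mean, and much of this came from control tumor 1. *Krt16*, a keratin of activated squamous epithelium (chr11:100246091-100248902 in GRCm38), had 46.9, 18.3 and 6.41 CPM in the controls and 4.38, 1.91 and 2.56 CPM in the shRNA1 tumors. Its groups were separate and differed by log2 −3.01 (standard error 0.75, adjusted p = 0.759), with log2 −2.06 when control tumor 1 was left out. *Krt15*, a basal keratin, had 23.3, 3.13 and 2.46 CPM against 2.57, 1.86 and 2.22 CPM, and *Krt6a* had 209, 298 and 118 CPM against 130.2, 147 and 106 CPM. Both overlapped between groups. Over 15 tested keratins 1 was higher and 1 lower at an unadjusted p under 0.05, with a median log2 fold change of −0.71 that turned to 0.38 without control tumor 1 and was −1.29 without control tumor 3 and −1.59 without shRNA1 tumor 3.

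The cornified envelope genes, which build the dead outer layer of skin, had a median log2 fold change of −0.62 over 19 tested members, of which 3 were lower at an unadjusted p under 0.05. Without control tumor 1 the median was 0.13, with 4 members higher and 0 lower, while it was −1.04 without control tumor 3 and −1.003 without shRNA1 tumor 1. The summed level of the listed genes was 533.8 CPM in control tumor 1, 130.3 to 220.0 CPM in the other controls and 187.4 to 260.8 CPM with shRNA1. *Sprr1a*, a small proline-rich envelope precursor, had 5.69, 0.973 and 0.750 CPM against 0.558, 0.343 and 0.724 CPM, and *Sbsn*, encoding suprabasin, had 20.7, 1.02 and 1.17 CPM against 0.386, 0.343 and 1.19 CPM. *Lypd3*, a surface protein of suprabasal cells, had 17.6, 16.6 and 7.58 CPM against 8.11, 3.92 and 8.61 CPM, with control tumor 3 inside the shRNA1 range. The part of skin tissue in these differences was not tested.

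Transcription factors of squamous epithelium were split. Of 28 tested, 4 were higher and 1 was lower at an unadjusted p under 0.05. *Barx2*, a homeobox factor, had 3.45, 4.74 and 2.04 CPM against 1.502, 0.930 and 1.83 CPM and was lower in each shRNA1 tumor. *Grhl2*, which maintains epithelial junction genes, had 77.4, 80.99 and 72.8 CPM against 85.8, 118 and 112 CPM. It was higher in each shRNA1 tumor, with shRNA1 tumor 1 close to the controls.

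Of 57 tested genes of the hillock signature that the study used, 4 were higher and 3 lower at an unadjusted p under 0.05, with a median log2 fold change of 0.11 that ranged from 0.012 without shRNA1 tumor 3 to 0.24 without shRNA1 tumor 1. Hillock cells are a squamous-like cell group of airway epithelium in which *Tmprss11b* is expressed. The lower members were *Serpinb2*, an inhibitor of plasminogen activators, with 9.39, 5.79 and 4.54 CPM against 2.62, 1.08 and 2.68 CPM, *Ptgs2* (cyclooxygenase-2), with 42.4, 43.1 and 55.4 CPM against 35.3, 18.5 and 30.9 CPM, and *Ces1d*, a carboxylesterase, with 0.948, 2.66 and 1.04 CPM against 0, 0.0489 and 0.298 CPM. All 3 had separate groups, and *Ces1d* passed the count filter through the controls. The 4 higher members included *Alcam*, with 75.6, 76.3 and 85.4 CPM against 86.5, 143 and 151 CPM and separate groups. Of the whole list, 39 members had a positive log2 fold change and 18 a negative one. Of 12 desmosome genes 0 passed the unadjusted threshold, and *Dsg2*, a desmosomal cadherin, had 88.3, 100.2 and 123 CPM against 128, 378 and 131 CPM.

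Other membrane serine proteases were examined beside the target. Of 14 tested members of the list, *Tmprss11b* included, 3 were lower and 1 was higher at an unadjusted p under 0.05. *Tmprss4*, another type II transmembrane serine protease, had 76.7, 77.6 and 56.1 CPM in the controls and 31.1, 16.2 and 47.2 CPM in the shRNA1 tumors. The groups were separate, with a log2 difference of −1.15 (standard error 0.37, adjusted p = 0.759). *Tmprss11f*, a relative from the same gene cluster, was near the floor with 0.776, 1.65 and 0.583 CPM against 0.257, 0.0979 and 0.596 CPM. The tryptase-like *Prss22* had 52.3, 83.3 and 66.4 CPM against 74.2, 224 and 121 CPM, high in shRNA1 tumor 2.

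Lactate genes differed little. Of 10 tested, 1 passed the unadjusted threshold: *Ldhb*, the lactate dehydrogenase subunit of oxidative tissue, with 8.06, 8.37 and 12.7 CPM against 5.45, 2.99 and 5.96 CPM and separate groups. *Ldha*, the major subunit of glycolytic cells, had 809.9, 1078 and 720.2 CPM against 902, 1105 and 1056 CPM, and *Bsg*, encoding basigin, had 466, 425 and 332 CPM against 426, 406 and 637 CPM. *Slc16a1*, encoding the lactate transporter MCT1, had 84.6, 105 and 87.00 CPM against 114, 109 and 77.1 CPM. For these 3 genes the groups overlapped, and the 95% intervals of the log2 differences ran from −0.12 to 0.59, from −0.15 to 0.68 and from −0.22 to 0.45. The study ties TMPRSS11B to lactate export through another transporter, MCT4, and no values of its gene are given here.

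Of 30 glycolysis and hypoxia genes, 24 had a positive log2 fold change and 0 passed the unadjusted threshold, with a median of 0.22. *Egln3*, an oxygen sensor that hypoxia induces, had 72.6, 100.4 and 34.5 CPM against 75.5, 195 and 126 CPM, and the glucose transporter gene *Slc2a1* had 189, 262 and 126 CPM against 203, 354 and 264 CPM. In both genes control tumor 3 was lowest of the 6. Without that tumor the median of the list was 0.13, without shRNA1 tumor 1 it was 0.33 and without shRNA1 tumor 3 it was 0.089.

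Growth factor signaling genes showed few differences. Of 33 feedback and target genes of ERK, 0 passed the unadjusted threshold and the median log2 fold change was 0.01. *Dusp4*, an ERK phosphatase, had 38.5, 59.7 and 53.6 CPM against 61.2, 94.2 and 51.6 CPM, and *Plaur*, the urokinase receptor, had 79.2, 94.7 and 82.2 CPM against 101, 179.8 and 89.4 CPM, overlapping in both cases. Of 15 genes of the EGF receptor family and its ligands, 1 was higher: *Erbb3*, a receptor with weak kinase activity of its own, with 55.03, 53.2 and 59.3 CPM against 61.3, 84.7 and 76.98 CPM.

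Of 24 TGF-beta pathway genes, 2 were higher and 0 lower, both encoding proteins that hold TGF-beta latent in the matrix. *Ltbp3* had 492, 401 and 526 CPM against 588, 996 and 678 CPM and *Ltbp1* had 136, 172 and 163 CPM against 205, 225 and 178 CPM. In each, all shRNA1 tumors were above all controls, and the median of the whole list was −0.02.

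Proliferation genes were close between groups. Of 34 tested cell cycle genes 1 was lower at an unadjusted p under 0.05 and 25 had a negative log2 fold change, with a median of −0.10. That gene was *Cenpa*, the centromeric histone, with 56.7, 71.6 and 58.6 CPM against 49.8, 47.9 and 50.1 CPM. *Rrm2*, a subunit of ribonucleotide reductase, had 111, 128 and 97.04 CPM against 93.97, 95.9 and 90.7 CPM. Both were lower in each shRNA1 tumor by small amounts, and without control tumor 2, the highest for both, the list median was 0.03.

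Of 20 targets of p53, 3 were higher and 0 lower, with a median log2 fold change of 0.14. *Trp53inp1*, which promotes p53 activity and autophagy, had 126, 132 and 110.2 CPM against 171, 155 and 159 CPM and separate groups. *Cdkn1a*, the cyclin-dependent kinase inhibitor p21, had 152, 119 and 85.96 CPM against 146, 200.02 and 207 CPM, with shRNA1 tumor 1 inside the control range. *Zmat3*, an RNA-binding target, had 141, 112 and 111 CPM against 173, 153 and 138 CPM.

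Stress genes were slightly higher in the mean. Of 22 genes of the unfolded protein response and heat shock, 20 had a positive log2 fold change and 1 passed the unadjusted threshold, with a median of 0.21 that was 0.073 without shRNA1 tumor 3. *Trib3*, a pseudokinase induced below ATF4, had 54.8, 70.9 and 63.8 CPM against 89.3, 93.1 and 71.1 CPM, and *Hspa5*, the endoplasmic reticulum chaperone BiP, had 1511, 1686 and 1614 CPM against 1888, 1806 and 2424 CPM. Among 23 antioxidant targets of NRF2, the aldehyde dehydrogenase gene *Aldh3a1* was lower with 78.5, 39.8 and 28.9 CPM against 28.8, 10.9 and 15.5 CPM. That list had 2 members higher and 1 lower at an unadjusted p under 0.05 and a median of 0.05. *Gclc*, which starts glutathione synthesis, had 39.8, 39.4 and 38.8 CPM against 46.7, 90.7 and 45.8 CPM, high in shRNA1 tumor 2, and *Gsr*, glutathione reductase, had 189, 199 and 193 CPM against 200.2, 350.1 and 255 CPM.

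Antigen presentation genes leaned lower. All 24 tested members of the list had a negative log2 fold change, 7 had separate groups and 1 was lower at an unadjusted p under 0.05, with a median of −0.57. *H2-DMa*, a chain of the chaperone that loads peptide on MHC class II, had 127, 125 and 140.1 CPM in the controls and 120.4, 60.1 and 82.2 CPM in the shRNA1 tumors. *H2-DMb1*, its partner chain, had 121, 130.4 and 131 CPM against 115, 44.5 and 73.7 CPM, and *Tapbp*, the class I peptide-loading factor tapasin, had 519, 549.8 and 566 CPM against 466, 354 and 488 CPM. shRNA1 tumor 2 was lowest in these 3 genes, and the groups were separate. The summed level of the list was 12994 to 15289 CPM in the controls and 13075, 5316 and 9569 CPM in the shRNA1 tumors. Without shRNA1 tumor 2 the median was −0.31, and without shRNA1 tumor 1 it was −0.94 with 20 of 24 members past the unadjusted threshold.

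Interferon response genes had a median log2 fold change of −0.34 over 33 tested members, of which 1 was lower at an unadjusted p under 0.05. Without shRNA1 tumor 1 the median was −0.58 with 17 lower, and without control tumor 3 it was −0.22 with 0 lower. The 1 gene was *Irf1*, a factor induced by interferon gamma, with 281, 367 and 424 CPM against 302, 245 and 259.8 CPM. The guanylate-binding protein gene *Gbp2* had 379, 562 and 698 CPM against 512, 214 and 336 CPM. In both genes control tumor 3 was highest, and shRNA1 tumor 1 lay inside the control range.

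Lymphocyte genes followed the same tumors. Of 22 tested cytotoxic and NK cell genes, 20 had a negative log2 fold change, 2 were lower at an unadjusted p under 0.05 and 4 had separate groups, with a median of −0.62. *Gzme*, a granzyme of activated killer cells, had 33.2, 18.7 and 13.5 CPM against 9.397, 11.01 and 10.9 CPM, and *Ifng*, encoding interferon gamma, had 1.68, 2.24 and 3.46 CPM against 1.33, 0.489 and 0.937 CPM. Both were lower in each shRNA1 tumor. *Prf1*, encoding perforin, had 3.49, 7.91 and 7.29 CPM against 5.02, 0.685 and 2.39 CPM, with shRNA1 tumor 1 inside the control range. The median of this list was −0.36 without shRNA1 tumor 2 and −1.10 without shRNA1 tumor 1.

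Of 27 T cell genes, 23 had a negative log2 fold change with a median of −0.50, while 0 were lower and 1 was higher at an unadjusted p under 0.05. *Cd4*, the co-receptor of helper T cells, had 19.9, 15.1 and 18.1 CPM against 22.4, 11.1 and 18.2 CPM, and *Cd8a*, that of cytotoxic T cells, had 17.1, 24.1 and 26.8 CPM against 23.7, 2.398 and 8.73 CPM. shRNA1 tumor 1 was at or above the middle of the control range and shRNA1 tumor 2 was lowest for both. Without shRNA1 tumor 2 the list median was −0.088, and without shRNA1 tumor 1 it was −0.94 with 10 of 27 genes lower at an unadjusted p under 0.05. Of 12 tested B cell and plasma cell genes 0 passed the unadjusted threshold, and the median of 0.46 was 0.11 without control tumor 2, 0.26 without shRNA1 tumor 1 and 0.23 without shRNA1 tumor 3.

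**Figure D3:**
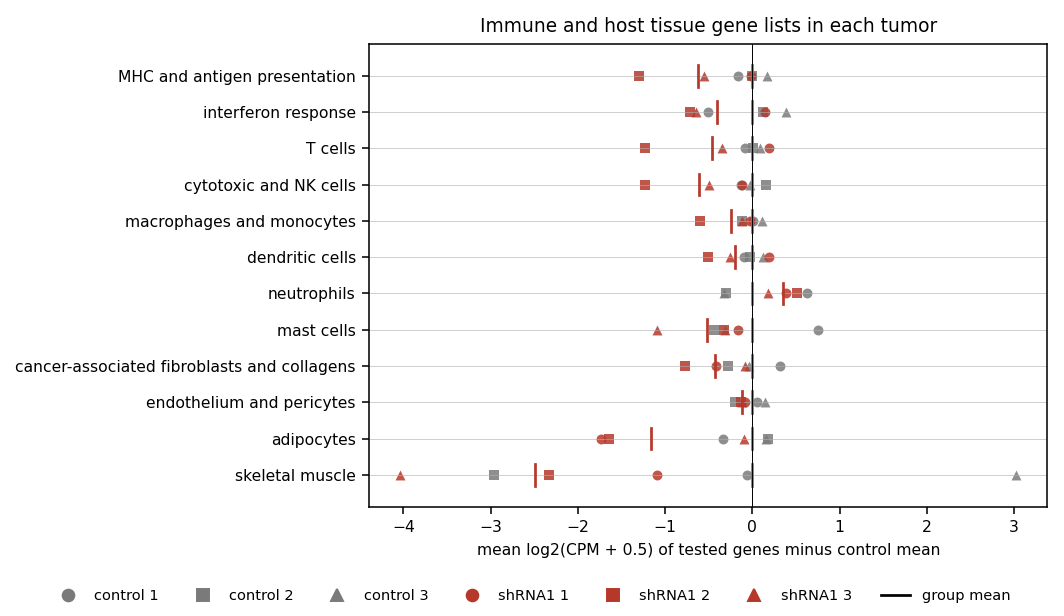
Mean log2(CPM + 0.5) over the tested genes of 12 lists of immune and host tissue genes, each minus the mean of the 3 controls, on the horizontal axis; points are tumors and vertical strokes are group means. shRNA1 tumor 2 is lowest of the 6 for MHC, T cell, cytotoxic, macrophage and dendritic cell genes, shRNA1 tumor 1 lies among or beside the controls for these, and control tumor 3 stands out for skeletal muscle.

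Myeloid genes were split. Of 25 macrophage and monocyte genes, 19 had a negative log2 fold change, 6 had separate groups with shRNA1 lower, and the median was −0.31, or −0.12 without shRNA1 tumor 2. *Aif1*, a cytoskeletal protein of macrophages, had 94.4, 94.99 and 99.2 CPM against 83.9, 49.9 and 73.5 CPM, and *C1qc*, a complement chain made by tissue macrophages, had 666, 553 and 571 CPM against 518, 288 and 494 CPM. The scavenger receptor *Marco* was higher in each shRNA1 tumor at a low level, with 0.302, 0.296 and 0.167 CPM against 0.944, 0.783 and 0.469 CPM. It passed the count filter through the shRNA1 tumors.

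Of 22 genes of immunosuppressive macrophages, 2 were higher, 0 were lower and the median log2 fold change was −0.05. The higher genes were *Arg1*, described above, and *Mmp12*, the macrophage elastase, with 56.6, 84.03 and 36.7 CPM against 117, 154 and 113 CPM (log2 1.11, standard error 0.30, adjusted p = 0.759). Both had separate groups. *Retnla*, another gene of alternative activation, was lower in the mean, with 3.53, 6.68 and 11.5 CPM against 0.601, 0.343 and 4.22 CPM, and *Cd274*, encoding PD-L1, had 53.2, 80.7 and 109 CPM against 79.1, 44.3 and 47.4 CPM. Their groups overlapped, and shRNA1 tumor 2 had the lowest *Retnla*.

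Among 18 dendritic cell genes, 3 were higher and 0 lower at an unadjusted p under 0.05, while 13 had a negative log2 fold change and 5 a positive one. The median was −0.34, with −0.17 without shRNA1 tumor 2 and −0.52 without shRNA1 tumor 1. *Tnfrsf9*, the costimulatory receptor 4-1BB, had 11.6, 16.3 and 11.5 CPM against 23.1, 18.2 and 22.5 CPM. The chemokine genes *Ccl22* and *Ccl17*, whose products attract CCR4-bearing T cells, had 7.15, 7.19 and 8.45 and 2.46, 3.38 and 2.83 CPM in the controls, and 18.9, 32.5 and 8.82 and 7.895, 18.99 and 3.24 CPM in the shRNA1 tumors. shRNA1 tumors 1 and 2 were high for both chemokines, and shRNA1 tumor 3 was close to the controls. *Itgax*, another member of the list, was lower in the mean, with shRNA1 tumor 1 inside the control range. In a normalization of all 9 tumors it had 158, 163 and 162 CPM against 160, 114 and 108 CPM.

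Of 21 neutrophil genes 0 passed the unadjusted threshold. *Lcn2*, encoding lipocalin-2, a neutrophil granule protein that epithelium also makes, had 113, 95.5 and 140.3 CPM against 414, 70.04 and 331 CPM, with shRNA1 tumors 1 and 3 high and shRNA1 tumor 2 low. *Cxcl1*, a neutrophil attractant, had 71.8, 34.8 and 45.2 CPM against 41.5, 13.02 and 19.8 CPM. The list median of 0.38 was 1.07 without control tumor 1, 0.20 without control tumor 2 and 0.10 without shRNA1 tumor 2.

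Mast cell genes had a median log2 fold change of −0.87 over 10 tested members, of which 2 were lower at an unadjusted p under 0.05. Beside *Mcpt4* this was *Cma1*, another chymase, with 11.4, 4.74 and 6.66 CPM against 3.35, 4.31 and 1.15 CPM and separate groups. *Cpa3*, the mast cell carboxypeptidase, had 4.27, 1.61 and 3.04 CPM against 1.72, 1.81 and 1.15 CPM, with groups that overlapped. Control tumor 1 was highest of the 6 for these 3 genes. Without shRNA1 tumor 3 the median of the list was −0.47. Without control tumor 1 it was 0.11, 7 of 10 members had a positive log2 fold change, and *Mcpt4* itself was at log2 −1.64.

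Stromal genes were lower in the mean with overlap between groups. Of 31 fibroblast and collagen genes, 27 had a negative log2 fold change and 2 were lower at an unadjusted p under 0.05, with a median of −0.36. *Dcn*, the proteoglycan decorin, had 88.6, 44.8 and 129.6 CPM against 29.5, 25.6 and 58.3 CPM, and *Dpt*, the dermal matrix protein dermatopontin, had 46.6, 21.3 and 56.8 CPM against 15.7, 7.78 and 26.97 CPM. In both genes shRNA1 tumor 3 lay inside the control range. The median was −0.11 without control tumor 1 and −0.21 without shRNA1 tumor 2.

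Of 19 genes of epithelial to mesenchymal transition, 3 were lower and 0 higher, with a median log2 fold change of −0.23, or −0.14 without control tumor 1. *Tgfbi*, a matrix protein that TGF-beta induces, had 413, 378 and 313 CPM against 297, 158 and 232 CPM. *Prrx1*, a mesenchymal homeobox factor, had 67.01, 61.5 and 60.8 CPM against 50.3, 37.00 and 54.1 CPM, and *Cdh11*, the cadherin of mesenchymal cells, had 90.8, 63.7 and 75.4 CPM against 60.9, 47.2 and 62.5 CPM. All 3 were lower in each shRNA1 tumor. These genes are also expressed by fibroblasts of the host.

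The list of genes of matrix proteases and their inhibitors, which includes *Mmp12*, leaned lower. *Adamts5*, an aggrecanase, had 17.2, 11.3 and 22.5 CPM against 9.31, 7.097 and 11.6 CPM, and the list of 22 had a median log2 fold change of −0.27, with −0.16 without control tumor 1, −0.10 without shRNA1 tumor 2 and −0.44 without shRNA1 tumor 3. Endothelial and pericyte genes had a median of −0.05 over 24 members. *Plvap*, a protein of fenestrated vessels, had 62.96, 42.8 and 51.2 CPM against 37.2, 32.6 and 46.1 CPM, and *Abcc9*, a pericyte potassium channel subunit, had 24.5, 25.5 and 27.5 CPM against 31.97, 33.2 and 29.6 CPM with shRNA1 tumors higher.

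Genes of adjacent host tissue were high in single tumors. The summed level of 22 skeletal muscle genes was 682.9, 162.0 and 5458 CPM in the controls and 337.4, 259.4 and 90.2 CPM with shRNA1. *Myh4*, a fast myosin heavy chain, had 66.4, 1.69 and 621 CPM against 8.496, 3.57 and 0.170 CPM, and *Ckm*, muscle creatine kinase, had 38.8, 1.44 and 371 CPM against 10.4, 2.54 and 0.213 CPM. The median log2 fold change of the list, −3.98, was −1.32 without control tumor 3. No muscle gene had separate groups.

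Adipocyte genes had a median log2 fold change of −1.26 over 14 tested members, with 2 lower at an unadjusted p under 0.05. *Lpl*, lipoprotein lipase, had 55.9, 62.9 and 66.01 CPM against 44.9, 50.1 and 49.5 CPM and separate groups. *Car3*, a carbonic anhydrase of fat and muscle, had 42.7, 26.1 and 167 CPM against 15.5, 8.96 and 27.2 CPM. The fat-cell lipid droplet gene *Plin1* was at 0.881, 2.03 and 1.21 TPM in the controls. It was at 0 TPM in shRNA1 tumors 1 and 2 and, inside the control range, at 1.36 TPM in shRNA1 tumor 3. It had 40 counts or fewer in each tumor. Without shRNA1 tumor 3 the median was −2.71. The part of adjacent muscle and fat in the differences of other genes was not tested.

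**Figure D4:**
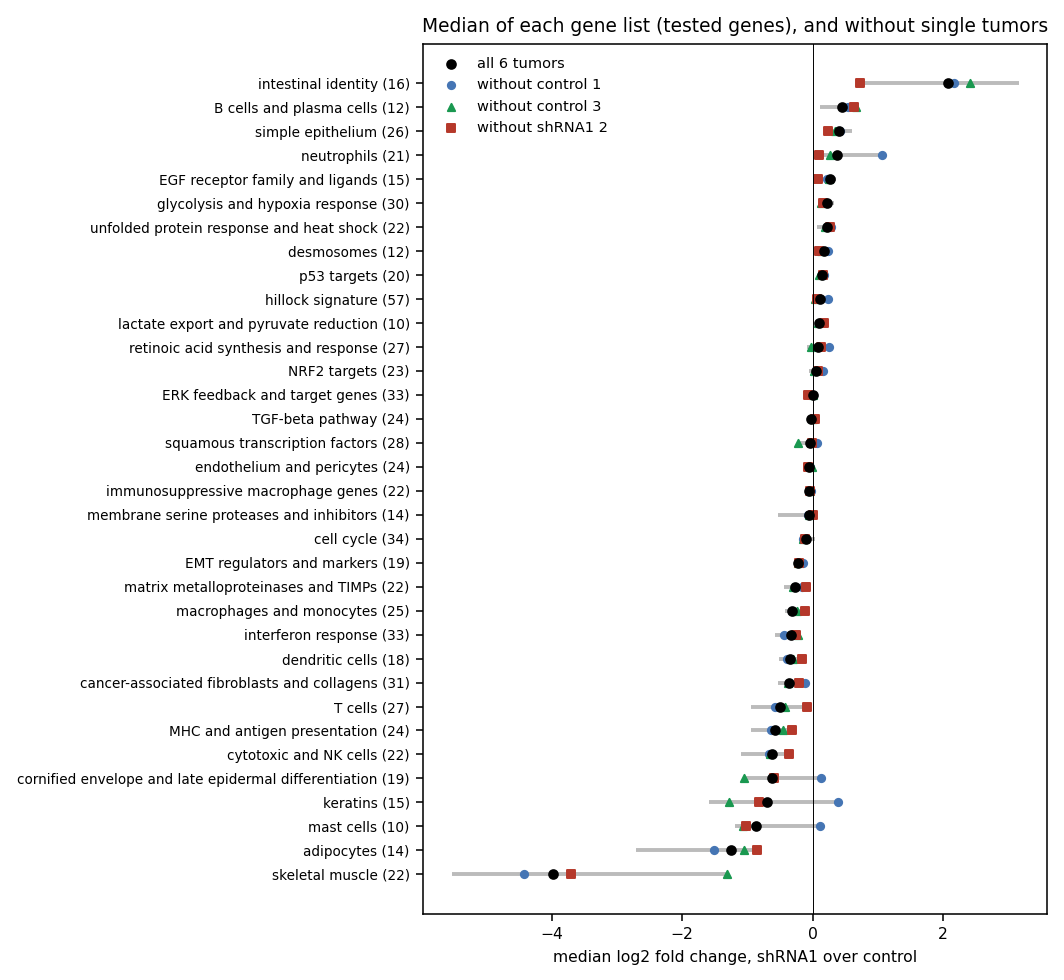
Median log2 fold change, shRNA1 over control, of the tested genes of each of 34 lists (number tested in parentheses), with all 6 tumors as black points, with 1 tumor left out as colored symbols, and the range over the 6 tumors left out in turn as grey bars. Medians of keratin, cornified envelope and mast cell genes cross from below 0 to above 0 without control tumor 1, the skeletal muscle median moves to −1.32 without control tumor 3 and the intestinal median to 0.72 without shRNA1 tumor 2.

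Single tumors were then read gene by gene. Genes with at least 5 CPM in 1 tumor and at least 4 times the level of every other tumor numbered 26 in control tumor 1, 0 in control tumor 2, 141 in control tumor 3, 1 in shRNA1 tumor 1, 52 in shRNA1 tumor 2 and 3 in shRNA1 tumor 3. In control tumor 1 the leading genes were epidermal, such as *Krt77* with 15.1, 0 and 0.0833 CPM against 0.172, 0.0979 and 0 CPM and *Calm4*, a calmodulin-like protein of skin, with 27.8, 0.127 and 0.125 CPM against 0.300, 0.440 and 0 CPM. In control tumor 3 they included heart and slow muscle genes, such as *Myl3*, a myosin light chain, with 0.0862, 0.0423 and 12.95 CPM against 0.129, 0.0979 and 0 CPM and *Myh7*, a slow myosin heavy chain, with 0.172, 0.169 and 76.1 CPM against 3.22, 0.343 and 0 CPM. Both tumors carried these genes together with the skin and muscle lists given above.

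In shRNA1 tumor 2 the leading genes were *Muc13*, *Isx* and *Clca4*, given above, and 3 others. *H60c*, a ligand of the killer cell receptor NKG2D that skin expresses, had 1.21, 0 and 0 CPM against 1.67, 69.5 and 0.596 CPM. *Tacr3*, a tachykinin receptor, had 0.129, 0.254 and 0.0833 CPM against 0.257, 10.6 and 0.170 CPM, and *BC021614* had 1.81, 1.61 and 1.17 CPM against 2.79, 77.5 and 1.02 CPM. For each, shRNA1 tumor 1 was the next highest. In this tumor 18 genes were also at least 4 times below the lowest of the other 5 tumors, against 0 or 1 genes in each of the others.

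In shRNA1 tumor 3 the leading genes were caseins, the milk proteins of mammary gland. *Csn1s1* had 0.0431, 0 and 0 CPM against 0, 0.0489 and 8.18 CPM and *Csn2* had 0.345, 0 and 0 CPM against 0.0858, 0.0489 and 9.29 CPM. *Csn3* had 0.646, 1.23 and 0.625 CPM against 0.858, 0.294 and 5.84 CPM. In shRNA1 tumor 1 the 1 gene past 4 times was *Fgfr3*, a fibroblast growth factor receptor, with 4.01, 3.26 and 3.66 CPM against 23.6, 1.71 and 3.75 CPM.

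**Figure D5:**
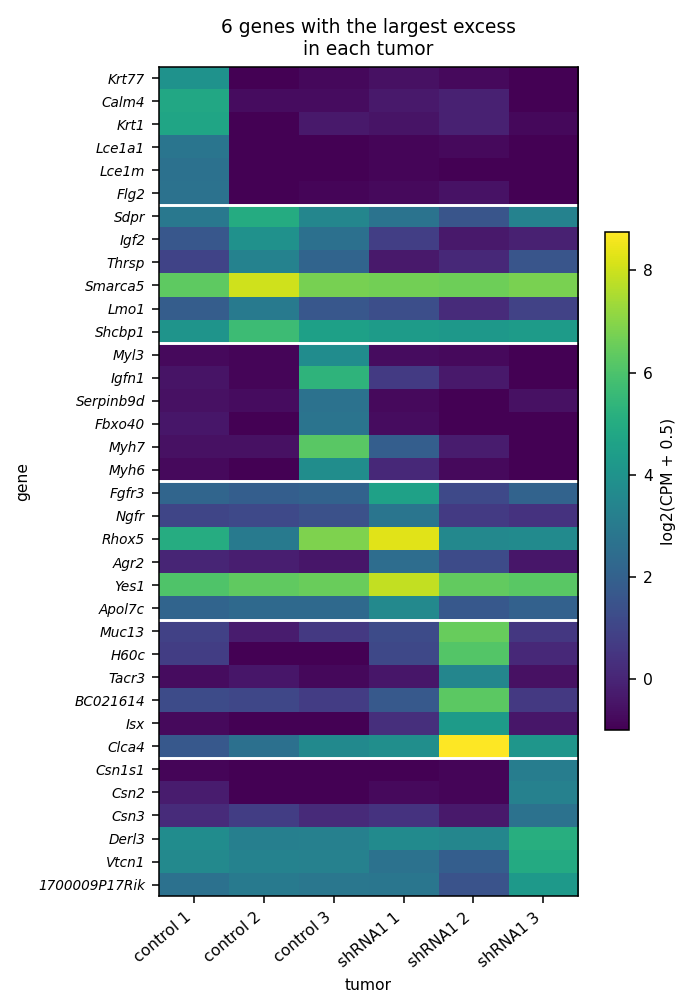
Level, as log2(CPM + 0.5) by color, of the 6 genes with the largest excess in each tumor (rows, blocks of 6 in the order of the columns) in the 6 tumors (columns). The blocks of control tumors 1 and 3 show genes at 3.22 CPM or less in every other tumor, the block of shRNA1 tumor 2 holds *Clca4* at 2.71 to 16.8 CPM in the others, and the blocks of control tumor 2 and shRNA1 tumor 1 show genes with counts in every tumor.

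The second shRNA against the same gene (shRNA2, 3 tumors of the same experiment) was read for some of the genes named above. These values come from a normalization of all 9 tumors, and both comparisons share the 3 control tumors. *Tmprss11b* had 0.462, 0.203 and 0.214 CPM in the shRNA2 tumors and *Krt16* 1.34, 4.32 and 5.13 CPM, both below all 3 controls. Of the 12 higher genes, 5 were above all 3 controls in each shRNA2 tumor, 6 overlapped them and 1 was below them. Of the 12 lower genes, 5 were below all 3 controls in each shRNA2 tumor, 7 overlapped them and 0 were above them. Both sets were picked because these same controls lie to 1 side of the shRNA1 tumors, which favors such counts. The share of all genes with such shRNA2 values was not counted, so the counts are not read as agreement between the hairpins. *Crot* had 241, 256 and 266 CPM in the shRNA2 tumors, *Nr1d1* 48.04, 38.9 and 48.6 CPM and *Mcpt4* 2.64, 1.47 and 0.684 CPM, the first above all 3 controls and the others below them. *Arg1* had 42.4, 106 and 11.1 CPM and *Muc1* 81.1, 179.9 and 146 CPM, both overlapping the controls. *Cdx2* had 6.06, 4.62 and 5.65 CPM and *Aldh1a3* 11.5, 16.3 and 11.2 CPM. Immune genes that were lower with shRNA1 were mixed with shRNA2. *H2-DMb1* had 54.5, 229 and 243 CPM and *Ifng* 1.99, 4.42 and 4.49 CPM, both overlapping the controls. *Gzme* had 1.39, 4.42 and 7.87 CPM, below all 3 controls.

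Tested directly in a fit of all 9 tumors, shRNA1 and shRNA2 tumors differed in 0 of 14725 genes at an adjusted p under 0.05 (lowest 0.673 by edgeR's quasi-likelihood test), with 1057 at an unadjusted p under 0.05. For *Arg1* the log2 difference, shRNA1 minus shRNA2, was 1.395 with a standard error of 0.69, and for *Muc1* it was 1.71 with a standard error of 0.41.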

How the data were processed

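RNA of 6 KLN205 tumors (3 with control shRNA, 3 with *Tmprss11b* shRNA1) was analysed, and 3 tumors with shRNA2 were used for reference. Groups, replicate numbers and the day of resection come from the sample labels. The authors aligned reads of stranded mRNA libraries with STAR 2.5.3a, and the submitters' processing notes name FastQC, featureCounts, edgeR and the mm10 genome. The strand setting and the treatment of multi-mapping reads are not given in the sources used here. The authors deposited raw counts per gene for 19481 genes, which were used for all tests. They also deposited TPM values, used here only for cell type markers, as well as a normalized CPM and their own edgeR comparisons (log2 fold change, p-value and FDR), which were not used.

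The deposited counts went into edgeR 4.0.16 under R 4.3.3. The 6 tumors were fitted with 1 coefficient per group after filterByExpr, which kept 14507 genes, and with TMM factors; tests were robust quasi-likelihood F-tests. Benjamini-Hochberg adjustment ran over all tested genes at a threshold of 0.05. The standard error is the absolute log2 fold change divided by the square root of F, and 95% intervals use the normal quantile. Plots use log2(CPM + 0.5). The fits were tested on simulated data with known changes. P-values measure the spread between these tumors.

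The genes named were *Tmprss11b*; the 12 higher and 12 lower genes with the smallest unadjusted p among those with groups that do not overlap and a mean of at least 1 CPM; up to 4 tested members of each of 34 gene lists with the smallest p; for each tumor up to 6 genes of at least 5 CPM with the largest ratio to the highest other tumor (against at least 3 counts); and cell type markers. These rules, the lists and the members of the comparison were chosen with earlier results of these data known. Some genes that these rules name are not reported here. The hillock list is from the study. A list is described by counts and its median, with no test. The libraries had no stated molecular identifiers, and the 3-count floor covers counting error only.

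Alternatives were DESeq2 1.42.0 (size factors, Wald test), edgeR likelihood ratio tests, no filter, at least 10 counts in every tumor, all 9 tumors in the fit, a replicate block, and leaving out 1 tumor at a time. Counts of list members with a tumor left out were added after seeing the data. Locations were taken from RefSeq for GRCm38.p6, in which 217 of the 219 symbols reported were found. Tables and plots were made with Python, pandas, numpy and matplotlib.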

Additional observations from a re-analysis of the deposited data

Results flagged for a closer look

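Of the named genes, 3 lay on opposite sides of the controls with the 2 hairpins against *Tmprss11b*: each shRNA1 tumor was above all 3 controls and each shRNA2 tumor below them. *Ifnlr1*, the type III interferon receptor chain, had 22.7, 29.03 and 33.04 CPM with shRNA1, 18.95, 17.3 and 17.4 CPM in the controls and 16.00, 14.3 and 13.4 CPM with shRNA2, in a normalization of all 9 tumors. *Ltbp3*, which holds TGF-beta latent, had 578, 983 and 663 CPM with shRNA1, 486, 393 and 517 CPM in the controls and 364, 341 and 362 CPM with shRNA2. *Abcc9*, the pericyte channel subunit, had 31.4, 32.8 and 28.95 CPM with shRNA1, 24.2, 25.00 and 27.1 CPM in the controls and 14.6, 20.2 and 15.8 CPM with shRNA2. The log2 differences, shRNA1 minus shRNA2, were 0.96 for *Ifnlr1*, 1.06 for *Ltbp3* and 0.88 for *Abcc9* (standard errors 0.17, 0.21 and 0.16), and each had an adjusted p of 0.673 by edgeR's quasi-likelihood test in the 9-tumor fit, so none passed the threshold. The genes were named for their shRNA1 values, and both comparisons use the same controls. How many of all tested genes show this pattern was not counted, so the number of such genes is not read as a result.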

How the results depend on the processing

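The count of genes at an adjusted p under 0.05 was 0 with DESeq2's size factors, without the filter, under a minimum of 10 counts in every tumor, for a fit of all 9 tumors and without any 1 tumor (lowest adjusted p 0.0807), and it was 27 with DESeq2's Wald test, 16 with edgeR's likelihood ratio test and 63 with the earlier dispersion functions and no filter. The last also gave 1369 genes at an unadjusted p under 0.05 in place of 774, split into 527 higher and 842 lower; without 1 tumor this number ranged from 490 (without shRNA1 tumor 2) to 1654 (without shRNA1 tumor 1), with 512 without control tumor 3. The number of genes whose groups do not overlap ranged from 2503 to 4218 in place of 1659, since 2 tumors against 3 overlap less often by construction. The log2 fold change of *Tmprss11b* passed the threshold in the likelihood ratio tests, at −2.89 with an adjusted p of 0.0231 and at −2.89 with 0.0448 in edgeR, and ranged from −3.26 to −2.58 without 1 tumor. The minimum of 10 counts leaves it out. Of the genes named, 32 had an adjusted p under 0.05 in at least 1 of these alternatives. The rules that named genes favor small p or extreme values in these same tumors. The share over all genes was not counted, so this number is no support for the named genes. Adjusted p over all alternatives ran from 3.04e-09 to 0.999 for *Arg1*, 0.00122 to 0.999 for *Muc1*, 0.00115 to 0.999 for *Krt16* and 0.00616 to 0.999 for *Mcpt4* and for *Nr1d1*.

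With the replicate number as a block, 0 genes had an adjusted p under 0.05 and 769 an unadjusted one (290 higher, 479 lower). Replicate numbers are shared by the groups, but no label says that they mark pairs, so the tumors were not treated as pairs. Deviations from group means correlated at −0.17, 0.087 and −0.22 for same-numbered tumors and at −0.27 to 0.38 for differently numbered ones. With 3 tumors per group these correlations cannot decide whether tumors were paired. The block turned *Vtcn1* to −0.30.

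Directions turned without 1 tumor for these named genes, given as the range of log2 fold changes over the tumors left out: −1.21 to 0.025 for *Tpsb2*, −4.00 to 0.55 for *Col17a1*, −0.84 to 0.12 for *Smarca5*, −0.41 to 1.91 for *Fgfr3*, −0.90 to 1.04 for *Ngfr*, −2.15 to 2.53 for *Rhox5*, −0.45 to 0.81 for *Apol7c*, −0.52 to 1.99 for *Csn3*, −1.15 to 0.84 for *Vtcn1*, −0.56 to 0.93 for *1700009P17Rik*, −0.27 to 0.20 for *Cd4*, −0.17 to 1.31 for *S100a8*, −0.090 to 1.26 for *S100a9*, −0.20 to 0.099 for *Csf3r*, −3.14 to 0.012 for *Krt10*, −2.62 to 0.28 for *Lor* and −0.23 to 0.79 for *Fabp2*. The cause was not tested. Of 34 list medians, 12 of 204 values without 1 tumor differed from the main value by more than the SD between tumors. With 3 tumors per group and a median standard error of 0.18 (log2), small differences could not be detected, and *Tmprss11b* itself rests on 2 to 51 counts per tumor.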

Other observations

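Control tumor 2 had no gene at 4 times the level of every other tumor. Of its leading genes, *Smarca5*, a chromatin remodeling ATPase, had 80.7, 261 and 108 CPM in the controls and 102, 96.9 and 109 CPM with shRNA1, and *Shcbp1*, a cell division protein, had 16.2, 50.1 and 22.5 CPM against 19.7, 17.8 and 20.02 CPM. *Igf2*, the fetal growth factor, had 2.63, 14.9 and 5.54 CPM against 1.24, 0.294 and 0.426 CPM, and each shRNA1 tumor was below each control for it. In shRNA1 tumor 1 the kinase gene *Yes1* had 66.4, 81.6 and 90.3 CPM against 233, 83.9 and 75.1 CPM, and *Rhox5*, a homeobox gene of the X chromosome, had 32.2, 7.36 and 115 CPM against 319, 11.1 and 12.1 CPM. *Vtcn1*, encoding the inhibitory ligand B7-H4, had 11.5, 9.47 and 9.29 CPM against 5.84, 3.23 and 30.4 CPM, high in shRNA1 tumor 3 and lower than in the controls in the other two shRNA1 tumors. *Derl3*, a gene of endoplasmic reticulum degradation, had 12.8, 8.84 and 8.996 CPM against 12.2, 10.7 and 34.2 CPM, also high in shRNA1 tumor 3.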
